A study of Mus musculus with 8 samples.

Results

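The TNF and death receptor genes considered here were the 10 genes with the symbols Tnf, Tnfsf10, Tnfrsf1a, Tnfrsf1b, Tnfrsf12a, Tnfrsf11a, Fas, Fadd, Tradd and Traf1, taken by name from the 54752 genes in the count tables. They were measured by RNA-seq in the right cortex of adult male wild-type C57BL/6 mice (C57BL/6 J in the methods) at 3 weeks from the operation, 1 mouse to a library. The 4 mice of the BCAS group (bilateral carotid artery stenosis) carried a microcoil around each common carotid artery, the narrower coil on the right, which lowers blood flow to the brain without closing the vessels. The 4 sham mice went through the operation without coils. The comparison asked how expression in the cortex on the more constricted side differed between the groups. It covers a single time after surgery and whole tissue, so that more cells of a type and more RNA per cell cannot be told apart.

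TNF is a cytokine that myeloid cells such as microglia make when activated, and which is cut from the cell surface to act at a distance. Its receptor Tnfrsf1a (TNFR1) is found on most cells and holds a death domain, whereas Tnfrsf1b (TNFR2) has none and signals through TRAF proteins. From TNFR1 the adaptor Tradd leads either to NF-kappaB and survival genes or, with Fadd and caspase-8, to cell death. Fas is a death receptor that binds Fadd directly, Tnfsf10 (TRAIL) is a death ligand, and Tnfrsf12a (Fn14) and Tnfrsf11a (RANK) are receptors of the same superfamily that lack a death domain.

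The libraries held 16759364 to 21794435 counted read pairs on genes, and 3 counts in the smallest library amounted to 0.187 CPM (counts per 1000000, scaled by edgeR's TMM factors). Of the 54752 genes, 17136 had enough counts for edgeR's quasi-likelihood test, and a gene was called when the Benjamini-Hochberg adjusted p was under 0.05 and the absolute log2 fold change above 1. Neurons, astrocytes, oligodendrocytes and microglia all left their markers in each library. The summed level of 8 microglia markers was 341 to 414 CPM in sham and 1260 to 4530 CPM in BCAS mice, and all 8 were called higher. The 7 neuron markers summed to 8830 to 10300 CPM in sham and 3500 to 7500 CPM in BCAS mice, of which Snap25 was called lower. Choroid plexus markers stood at 754 CPM in sham mouse 3 and at 13.6 to 61.4 CPM in the other libraries.

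Among the 9 genes of the group that could be tested, 7 were called higher in BCAS mice and none lower, where 11.0% of all tested genes were called higher and 1.28% lower. The called genes were Tnfrsf1b, Traf1, Tnfrsf1a, Fas, Fadd, Tnfrsf11a and Tnfsf10. Tnfrsf12a passed the adjusted p alone, which 19.2% of tested genes did in this direction, and Tradd passed neither threshold. Tnf did not enter the test, since only BCAS mice 1, 3 and 4 had enough counts and the filter asked for 4 libraries. The median log2 fold change of the 9 was 1.18, beside -0.01 for all tested genes. All 9 reached the level of the filter in each of the 4 sham mice. BCAS mice did not overlap sham mice in 7 of the 9, as in 18.5% of tested genes with BCAS higher.

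**Figure D1:**
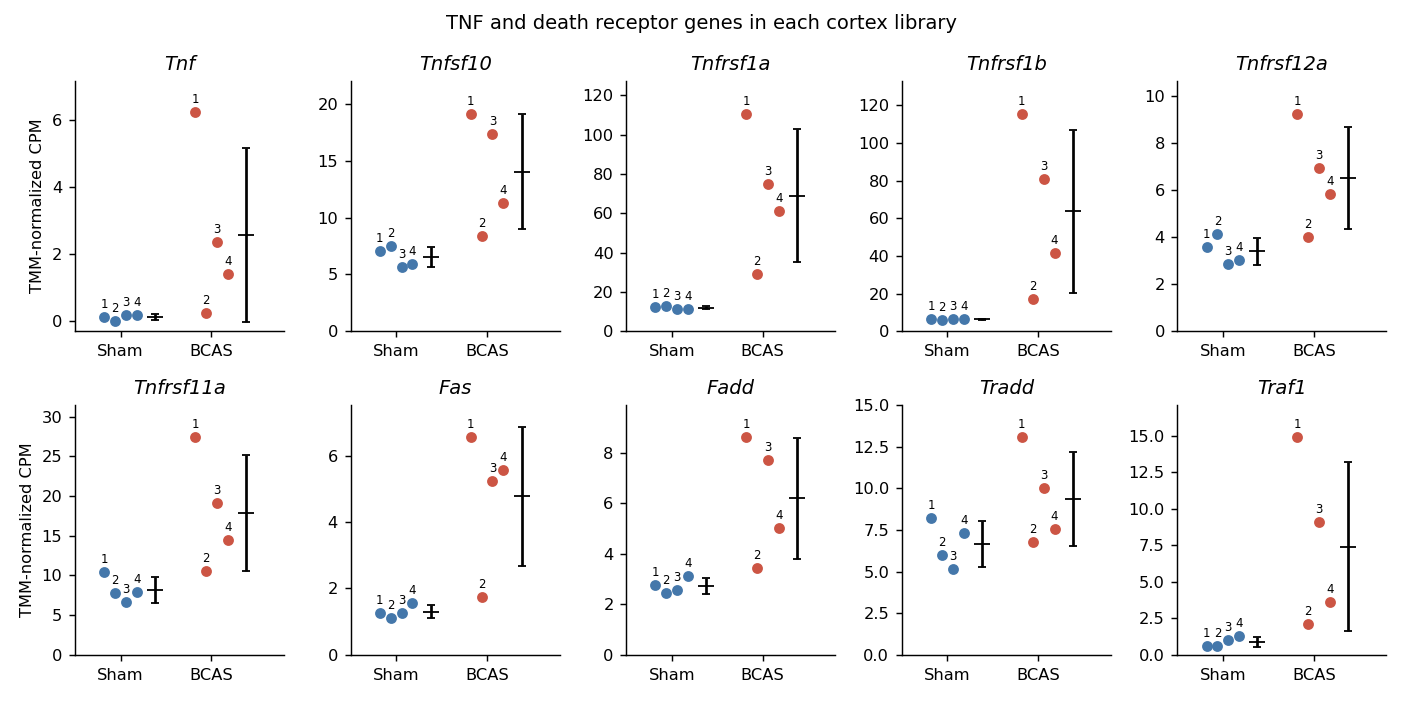
Expression of the 10 genes in each library, as TMM-normalized CPM on linear axes, with numbers marking the mice and black bars giving the mean ± SD of 4 mice. BCAS mouse 1 was the highest and BCAS mouse 2 the lowest of the BCAS mice in every panel.

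Sequences near the start sites are shown for the 4 genes in which a searched motif was found, namely Tnf, Tnfrsf1a, Tnfrsf1b and Fas. Fold changes were not used in the search, and Traf1 held no match. RefSeq promoters on GRCm38.p6, from 250 bases before to 50 after the start, were matched for 9 of the 10 genes, all but Tradd. Each window has 30 bases, written 5′ to 3′ on the strand of the gene, with the motif in capitals. The windows lie at chr17:35202019-35202048 (minus strand) for Tnf, chr6:125349473-125349502 (plus) for Tnfrsf1a, chr4:145247032-145247061 and chr4:145246861-145246890 (minus) for Tnfrsf1b and chr19:34290556-34290585 (plus) for Fas.
Tnf, TATA box: ttccccaagggcTATAAAggcggccgtctg
Tnfrsf1a, GAS: gcttccTTCCGTGAAattgacaacaggctt
Tnfrsf1b, GAS: agcgcattcaTTCCCGGAAgagatgctgga
Tnfrsf1b, ISRE type: ggcctgagggTTTCGCTTTCagtcaccagc
Fas, GAS: tcaaagcgatTTCTGGGAAgacctgaatag
The GAS motif (TTCNNNGAA, the form that STAT proteins recognize and the same on both strands) was in 3 of the 9 promoters, and in 8.30% of all 32851. It began 244 bases before the RefSeq start in Tnfrsf1a, 181 in Tnfrsf1b and 93 in Fas. For Tnfrsf1a the RefSeq start lies 361 bases downstream of the first base of the gene in the count tables, so that this motif falls inside the gene as counted. An element of the interferon-stimulated type (GAAANNGAAA, both strands) was read on the opposite strand in the last 10 bases before the Tnfrsf1b start, and 3.44% of promoters held one. TATAAA, searched on the strand of the gene, began 29 bases before the Tnf start and was in 8.32% of promoters. The AP-1 form TGANTCA (both strands) was in Fas alone of the 9, 211 bases before the start, and in 7.81% of all. The 10-base kappaB motif, found in 4.51% of promoters on either strand, was in none of the 9 promoters. Sites more than 250 bases before the start were not searched. The matches did not overlap each other, and a match is a description of the letters only.

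A second stretch is shown because the genes for proteins that bind it are among those measured below. Tnf mRNA holds an AU-rich element after the stop codon, to which the Zfp36 proteins bind and through which the mRNA is degraded.
Tnf, AU-rich stretch: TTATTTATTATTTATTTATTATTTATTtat
These 30 bases lie at chr17:35199678-35199707 (GRCm38, minus strand, exonic, in the 3′ UTR), 438 to 467 bases after the stop codon in the GENCODE transcript, and the capitals mark overlapping copies of TTATTTATT. They hold 4 of the 5 copies in the transcript. Of 58797 protein-coding transcripts, 5.03% had a copy anywhere and 0.131% had at least 4 within 30 bases.

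Tnf (ENSMUSG00000024401.14, chr17:35199381-35202007, minus strand) was close to the limit of detection in sham cortex. Sham mice 1 to 4 had 2, 0, 3 and 3 read pairs, and BCAS mice 1 to 4 had 142, 5, 44 and 26. All 4 BCAS mice were thus above all sham mice, but BCAS mouse 2 by only 2 read pairs. The mean was 0.117 ± 0.083 CPM for sham and 2.57 ± 2.59 CPM for BCAS mice (SD, n = 4 each; exact two-sided permutation test, p = 0.0286, the smallest that 70 arrangements allow). The pooled ratio was 23.2, with an exact 95% interval of 11.6 to 54.5 that covers counting error only. With any 1 sham mouse left out, and groups of 3 and 4, the permutation p rose to between 0.1143 and 0.1429. The difference itself stayed at 2.42 to 2.48 CPM, against 2.46 with all mice, but it was 1.23 CPM without BCAS mouse 1 and 3.23 CPM without BCAS mouse 2. In edgeR fits that leave out a sham mouse or BCAS mouse 2, Tnf passed the filter only through the BCAS mice, where it is high, and the calls it then received are no support.

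Tnfsf10, the death ligand TRAIL (ENSMUSG00000039304.11, chr3:27317028-27342427, plus strand), was higher in every BCAS mouse, by a smaller factor. Sham mice had 7.05, 7.49, 5.66 and 5.91 CPM and BCAS mice 19.2, 8.34, 17.3 and 11.3 CPM. BCAS mice 1 and 3 were well above the rest, while BCAS mouse 2 lay close to the highest sham mouse. The means of 6.53 ± 0.879 and 14.0 ± 5.06 CPM gave a log2 fold change of 1.11 (SE 0.26, edgeR adjusted p = 0.0157). It was not significant without sham mouse 4 (edgeR adjusted p = 0.0502), and its log2 fold change was as low as 0.93 without 1 of BCAS mice 1 and 3.

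Both TNF receptors rose, and they were the most abundant genes of the group in BCAS mice. Tnfrsf1a (ENSMUSG00000030341.17, chr6:125349362-125362484, plus strand) stood at 12.3, 12.8, 11.5 and 11.2 CPM in sham and 111, 28.9, 75.1 and 61.4 CPM in BCAS mice. Tnfrsf1b (ENSMUSG00000028599.10, chr4:145213463-145246870, minus strand) stood at 6.65, 5.87, 6.41 and 6.34 CPM in sham and 115, 17.2, 80.7 and 41.7 CPM in BCAS mice. For both genes the sham mice were nearly alike, every BCAS mouse was far above them, and the BCAS mice spread widely in the order 1, 3, 4, 2. The log2 fold change was 2.53 for Tnfrsf1a (SE 0.35, edgeR adjusted p = 0.00254). It was 3.34 for Tnfrsf1b (SE 0.52, edgeR adjusted p = 0.00362). Each call held with any of the 8 mice left out.

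Per kilobase of exon, the scale on which genes can be compared, Tnfrsf1a was above Tnfrsf1b in every library, and the gap was narrower in BCAS mice. In sham mice 1 to 4 the log2 ratio of Tnfrsf1b to Tnfrsf1a was -1.44, -1.68, -1.40 and -1.38. In BCAS mice it was -0.50, -1.31, -0.46 and -1.12, so that the groups did not overlap, although BCAS mouse 2 came within 0.07 of the nearest sham mouse. The mean ratio was -1.48 ± 0.14 for sham and -0.85 ± 0.43 for BCAS mice (SD, n = 4 each), a difference of 0.63 on the log2 scale (exact two-sided permutation test, p = 0.0286, the smallest possible). Leaving out any 1 sham mouse gave p = 0.0571 or p = 0.0857 by the same exact test, with a difference of 0.563 to 0.665.

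**Figure D2:**
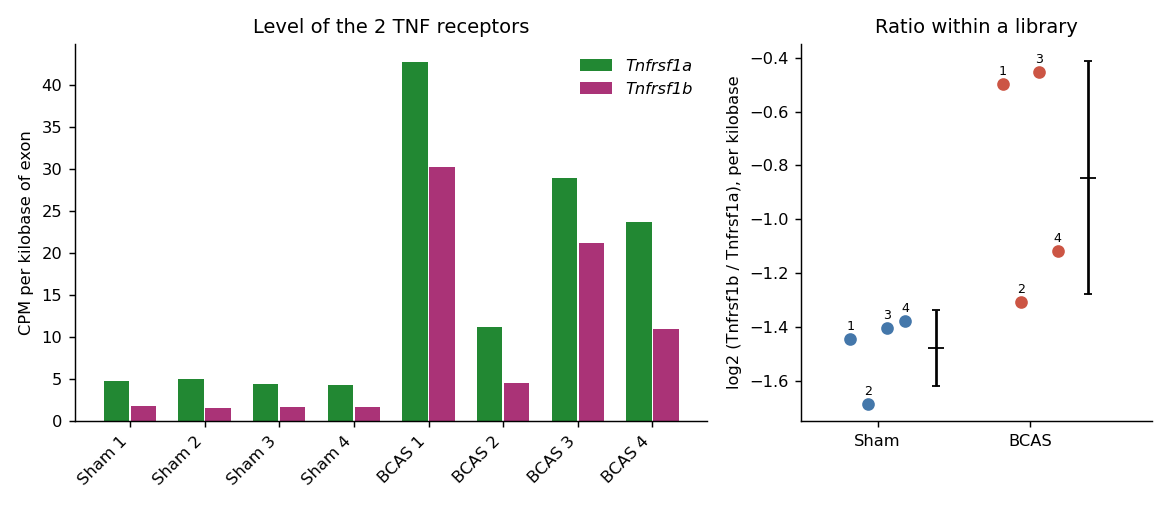
Levels of the TNF receptors per kilobase of exon in each library (left, bars from 0) and the log2 ratio of Tnfrsf1b to Tnfrsf1a within each library (right, points are mice and black bars the mean ± SD of 4). Tnfrsf1a was the higher bar in all 8 libraries, and the ratio moved from a mean of -1.48 in sham to -0.85 in BCAS mice.

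The death receptor Fas (ENSMUSG00000024778.12, chr19:34290659-34327770, plus strand) was low in sham cortex and rose in BCAS mice. Sham mice had 1.25, 1.12, 1.26 and 1.57 CPM and BCAS mice 6.55, 1.75, 5.24 and 5.56 CPM. The BCAS mice 1, 3 and 4 were close together, and BCAS mouse 2 was just above the sham range. Fas had a log2 fold change of 1.87 (SE 0.38, edgeR adjusted p = 0.00959), and was called with any mouse left out.

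Tnfrsf11a, the receptor RANK (ENSMUSG00000026321.7, chr1:105780718-105847981, plus strand), had 10.4, 7.74, 6.64 and 7.97 CPM in sham and 27.4, 10.5, 19.1 and 14.5 CPM in BCAS mice. BCAS mouse 2 was level with sham mouse 1, and the other BCAS mice were clearly above. Its log2 fold change was 1.13 (SE 0.28, edgeR adjusted p = 0.0195). The call was lost when any of sham mice 2 and 4 and BCAS mice 1 and 3 was left out, with an edgeR adjusted p of up to 0.0576 or a log2 fold change of 0.86.

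Tnfrsf12a, the receptor Fn14 (ENSMUSG00000023905.15, chr17:23675445-23677468, minus strand), had 3.58, 4.12, 2.86 and 3.02 CPM in sham and 9.23, 4.02, 6.91 and 5.83 CPM in BCAS mice. BCAS mouse 2 lay within the sham range and the other BCAS mice above it. The log2 fold change of 0.94 (SE 0.26, edgeR adjusted p = 0.0281) did not reach the fold threshold, and the adjusted p was 0.05 or more in 6 of the 8 fits with 1 mouse left out. Without BCAS mouse 2 the gene was called, with a log2 fold change of 1.13.

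The adaptors differed among themselves. Traf1 (ENSMUSG00000026875.14, chr2:34941750-34961772, minus strand), which joins TRAF complexes at TNFR2 and is itself a known NF-kappaB target, had 0.625, 0.624, 1.03 and 1.27 CPM in sham and 14.9, 2.11, 9.07 and 3.60 CPM in BCAS mice. All BCAS mice were above all sham mice, BCAS mice 1 and 3 most clearly. The log2 fold change was 3.06 (SE 0.62, edgeR adjusted p = 0.00933), and the call held with any mouse left out.

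Fadd, the adaptor that brings caspase-8 to Fas, ranged from 2.43 to 3.14 CPM in sham and from 3.45 to 8.62 CPM in BCAS mice, and was called (log2 fold change 1.18, edgeR adjusted p = 0.0186). The groups did not overlap, but the call was lost when either of sham mice 1 and 2 or either of BCAS mice 1 and 3 was left out. Tradd (ENSMUSG00000031887.13, chr8:105258286-105264609, minus strand), the adaptor of TNFR1, had 8.24, 5.99, 5.15 and 7.30 CPM in sham and 13.1, 6.75, 9.99 and 7.57 CPM in BCAS mice. BCAS mice 1 and 3 were above the sham range and BCAS mice 2 and 4 within it. Its log2 fold change of 0.49 (SE 0.24, edgeR adjusted p = 0.142) was not significant, and it was called in none of the fits with a mouse left out.

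**Figure D3:**
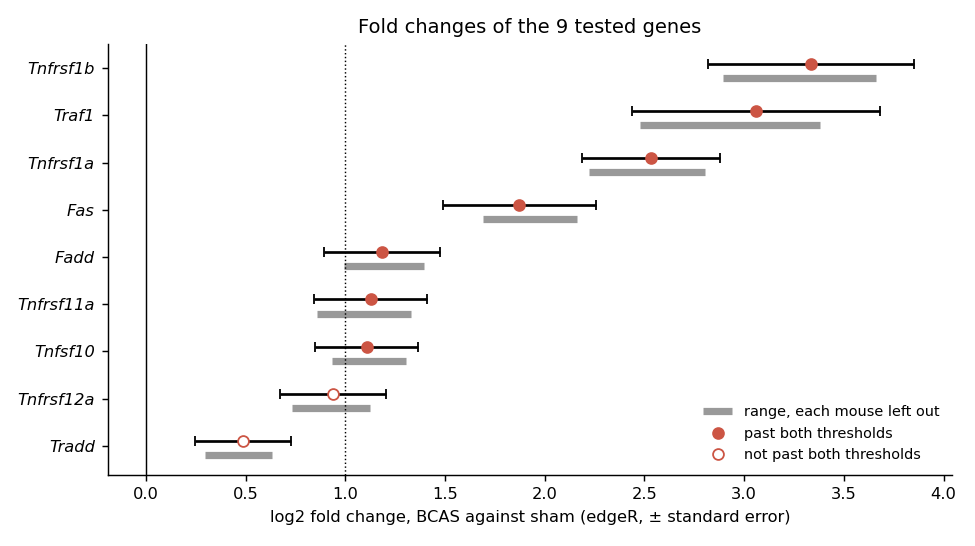
Log2 fold changes of the 9 tested genes, BCAS against sham, from edgeR (points, with bars of 1 standard error) and their range when each mouse was left out in turn (gray). Filled points passed both thresholds, the dotted line marks a log2 fold change of 1, and the gray ranges of Tnfrsf1b, Traf1, Tnfrsf1a and Fas stayed to the right of it.

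The order of the levels per kilobase was also followed. In sham mice Tnfrsf1a was first with 4.61 CPM per kilobase, then Tradd with 3.57, Tnfrsf12a with 1.76, Tnfrsf1b with 1.65, Tnfrsf11a with 1.37 and Tnfsf10 with 1.24. Fas and Fadd followed at 0.722 and 0.700 CPM per kilobase, and Traf1 was at 0.101. Tnf, at 0.0711 CPM per kilobase from 0 to 3 read pairs, was too near the floor to be placed. Neighbours in this order overlapped between mice except Tradd and Tnfrsf12a, Tnfsf10 and Fas, and Fadd and Traf1. In BCAS mice Tnfrsf1a was again first with 26.6 CPM per kilobase, and Tnfrsf1b was second with 16.7. Tradd was then at 5.01 CPM per kilobase and the other 7 genes lay between 0.841 and 3.36. All neighbours overlapped in the BCAS order, since the BCAS mice differed so much.

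The 10 genes ranked the BCAS mice alike at both ends. BCAS mouse 1 had the highest level and BCAS mouse 2 the lowest in all 10. Relative to the sham mean of log2 CPM (with a prior count of 2, which shrinks differences of genes near the floor such as Tnf), the median log2 difference over the 10 genes was 2.0, 0.39, 1.70 and 1.40 in BCAS mice 1 to 4, while that over all tested genes was between -0.003 and 0.011 in each. The same ends appeared in the microglia markers, at 4530, 1260, 2250 and 2420 CPM in BCAS mice 1 to 4, and, inverted, in the neuron markers. The number of calls depended on BCAS mice 1 and 3: without either one, 4 genes were called, namely Tnfrsf1a, Tnfrsf1b, Fas and Traf1. Without BCAS mouse 2, Tnfrsf12a was called as well, and without sham mouse 3, the library high in choroid plexus markers, the same 7 genes were called. Both counts leave out Tnf, which then passed the filter through BCAS mice only.

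Levels of the 10 genes were also set against the summed microglia markers of the same library, as a description. Tnfrsf1a came to 2.90% to 3.37% of that sum in sham and 2.29% to 3.34% in BCAS mice. Tnfrsf1b, at 1.42% to 1.88% and 1.36% to 3.59%, Traf1 and Tnf likewise overlapped between the groups. By contrast Tnfsf10, Tnfrsf12a, Tnfrsf11a, Fas, Fadd and Tradd made up a smaller percentage in every BCAS mouse than in any sham mouse. Tnfrsf11a, for example, was 1.87% to 2.71% of the sum in sham and 0.599% to 0.849% in BCAS mice, and Fas was 0.272% to 0.408% and 0.139% to 0.233%. The sum itself was 341 to 414 CPM in sham and 1260 to 4530 CPM in BCAS mice. A gene with an unchanged level therefore also makes up a smaller percentage in BCAS mice. The share of all tested genes that were lower in this way was not computed, so the separation is not particular to these genes.

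**Figure D4:**
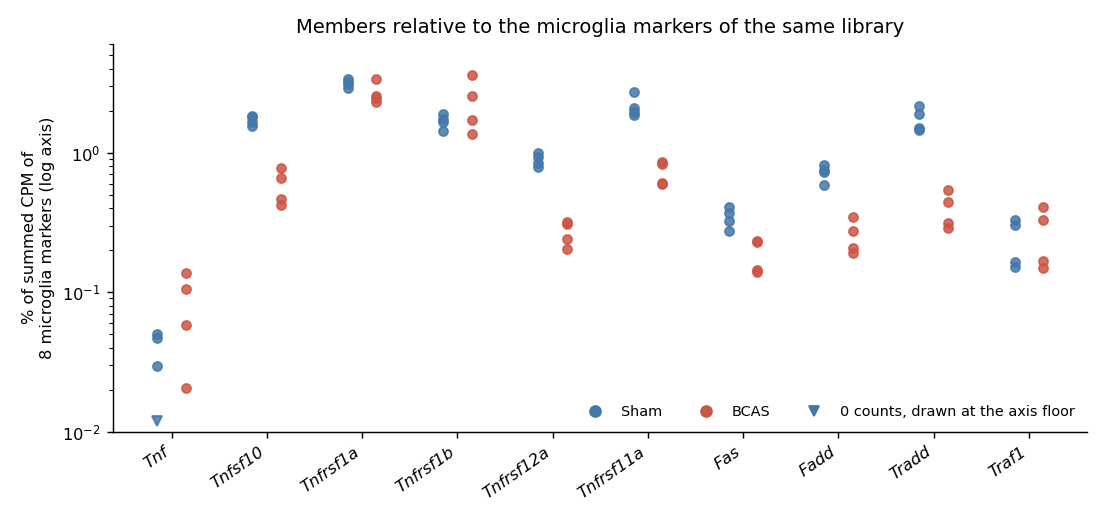
Each gene as a percentage of the summed CPM of 8 microglia markers in the same library, on a log axis, with each point a mouse and a triangle for a library without counts. Tnf, Tnfrsf1a, Tnfrsf1b and Traf1 overlapped between the groups, and the other 6 genes were lower in all BCAS mice. The marker sum was higher in every BCAS mouse, so that a gene with an unchanged level would also be lower here.

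Markers of other cells that can express these genes moved as well. Border macrophage and monocyte markers summed to 16.5 to 21.4 CPM in sham and 32.1 to 173 CPM in BCAS mice, with 6 of 7 called higher. Lymphocyte markers summed to 0.603 to 1.08 CPM in sham and to 46.7, 2.01, 28.7 and 7.25 CPM in BCAS mice 1 to 4. They were highest in BCAS mice 1 and 3, as were all of the 10 genes but Fas. This was not particular to lymphocytes, since BCAS mice 1 and 3 were also highest for macrophage, neutrophil, fibroblast, astrocyte, oligodendrocyte and red blood cell markers. None of the 8 lymphocyte markers had enough counts to be tested. Neutrophil markers summed to 0.125 to 0.744 CPM in sham and to 8.88, 0.618, 11.8 and 2.12 CPM in BCAS mice 1 to 4. BCAS mouse 2 thus lay within the sham range, and none of these markers had enough counts to be tested. The defining marker Ly6g was at 0 in every library, so that these sums come from the other markers of the list. Fibroblast markers (5 of 5 called higher) summed to at most 73.3 CPM in sham and 135 to 869 CPM in BCAS mice, and astrocyte markers (2 of 6 called higher) to at most 2180 CPM and 3210 to 6570 CPM. Endothelial, oligodendrocyte and red blood cell markers had no called gene. The part of these cells in the changes was not tested.

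Other genes of the pathway were taken from 6 lists with 86 genes, of which 72 could be tested. Of these, 31 were called higher and none lower, or 43.1% against 11.0% of all tested genes. Past the adjusted p alone there were 38 higher (52.8%) and 2 lower, where 19.2% of all tested genes were higher and 12.8% lower. However, 12 of the 72, among them 11 of the called genes, reached the level of the filter in fewer than 4 sham mice and were tested only through the BCAS mice. Of the 60 that passed on the sham mice alone, 20 were called higher (33.3%).

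Among 16 other ligands of the TNF superfamily, 6 were tested and 5 were called higher, but Ltb, Tnfsf8 and Tnfsf13 were tested only because of their level in BCAS mice. Of the 3 that passed on the sham mice alone, 2 were called higher, too few for a share. Tnfsf8, the CD30 ligand, had no read pair in any sham mouse and 246, 44, 85 and 78 in BCAS mice, at least 30.9-fold higher against a floor of 3 counts per library. Tnfsf12 (TWEAK), the ligand of Tnfrsf12a, stood at 2.30 ± 0.463 CPM in sham and 6.70 ± 3.11 CPM in BCAS mice. BCAS mouse 2, at 2.68 CPM, lay inside the sham range of 1.81 to 2.87 CPM. The log2 fold change of 1.54 (edgeR adjusted p = 0.0173) was not significant without sham mouse 4. It shares 48.3% of its exon bases with Tnfsfm13, a read-through gene, on the same strand. Ltb, lymphotoxin beta, had 9, 6, 10 and 9 read pairs in sham and 216, 2, 93 and 36 in BCAS mice, with BCAS mouse 2 below the sham range. The call of Ltb was lost in 7 of 8 fits with a mouse left out. It is no support, since Ltb passed the filter only through BCAS mice, where it is high. Eda, ectodysplasin, had a log2 fold change of -0.12 (edgeR adjusted p = 0.739).

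The ligands of Fas and Tnfrsf11a were too rare to be tested. Fasl had 0, 2, 0 and 0 read pairs in sham and 42, 4, 34 and 7 in BCAS mice, a pooled ratio of 37.3 (exact 95% interval 10.01 to 312). Tnfsf11 (RANKL) had none in sham and 12, 4, 9 and 6 in BCAS mice, at least 2.18-fold above the floor. All 4 BCAS mice were above the sham mice for both ligands.

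Of 23 other receptors, 19 were tested and 8 called higher. However, 7 of the 19, 6 of them called, were tested only through the BCAS mice, Tnfrsf14 among them. Of the 12 that passed on the sham mice alone, 2 were called higher (16.7%), beside 11.0% of all tested genes. Ltbr, the lymphotoxin beta receptor, rose from 8.29 ± 0.331 to 30.9 ± 11.5 CPM (log2 fold change 1.90, SE 0.26, edgeR adjusted p = 0.00254). Tnfrsf13b (TACI, a receptor for B cell survival factors) had a log2 fold change of 2.62 (edgeR adjusted p = 0.0041). Tnfrsf14 (HVEM) had 13, 7, 17 and 5 read pairs in sham and 227, 34, 142 and 100 in BCAS mice. Since Tnfrsf14 passed the filter only through the BCAS mice, where it is high, its call is no support. The most abundant receptors per kilobase, Tnfrsf21 (DR6) and Tnfrsf19 (TROY), had log2 fold changes of 0.24 each and did not pass (edgeR adjusted p = 0.0558 and 0.0513). Tnfrsf10b, the mouse receptor for Tnfsf10 that carries a death domain, had a log2 fold change of 1.06 (SE 0.37, edgeR adjusted p = 0.0526). Tnfrsf11b, the decoy receptor of Tnfsf11, passed the adjusted p alone with 0.91 (SE 0.22, edgeR adjusted p = 0.0172), which was lost without sham mouse 4.

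Of the 19 genes of the receptor complex, 3 were called higher (15.8%), with a median log2 fold change of 0.14. The called genes were Birc3, a ubiquitin ligase of the complex, with 2.44 (SE 0.48, edgeR adjusted p = 0.00853), the kinase Ripk1 with 1.71 (SE 0.31, edgeR adjusted p = 0.00632), and Tnfaip3 (A20), a brake on NF-kappaB, with 1.49 (SE 0.25, edgeR adjusted p = 0.00482). Tab2, an adaptor of the kinase TAK1, passed the adjusted p with a log2 fold change of 0.65 (edgeR adjusted p = 0.00918), as did Traf2 with 0.66, Rnf31 with 0.37 and, downwards, Map3k5 with -0.45. With 1 mouse left out, the adjusted p of Traf2 was lost in 5 of 8 fits, that of Rnf31 in 4 and that of Map3k5 in 7. Rbck1 of the linear ubiquitin ligase and Xiap, both abundant, had 0.04 and -0.04 (edgeR adjusted p = 0.693 and 0.681).

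Among 14 caspases and death effectors, 6 were called higher. Casp8, Cflar, Ripk3 and Mlkl were among them, of which Ripk3 and Mlkl were tested only through the BCAS mice. The calls of Ripk3 and Mlkl are therefore no support. Of the 12 effectors that passed on the sham mice alone, 4 were called higher (33.3%), beside 11.0% of all tested genes. Casp8, the initiator caspase that Fadd recruits, had 60, 66, 45 and 60 read pairs in sham and 824, 152, 397 and 287 in BCAS mice, and a log2 fold change of 2.57 (SE 0.42, edgeR adjusted p = 0.00458). Cflar, which encodes the caspase-8 inhibitor c-FLIP, had 1.57 (SE 0.27, edgeR adjusted p = 0.00527). Ripk3, the kinase of necroptosis, had 2, 2, 1 and 2 read pairs in sham and 83, 12, 54 and 17 in BCAS mice. The pooled ratio was 20.3 (exact 95% interval 9.64 to 51.3). Mlkl, the substrate of Ripk3, had 14, 4, 6 and 7 read pairs in sham and 79, 11, 56 and 39 in BCAS mice. BCAS mouse 2 lay within the sham range of Mlkl. The genes of the mitochondrial route were not called: Bax had 0.34 (edgeR adjusted p = 0.0503) and Casp9 -0.03 (edgeR adjusted p = 0.785). Cycs (cytochrome c), lower with -0.40 (edgeR adjusted p = 0.0201), and Bak1 and Apaf1, higher with 0.88 and 0.83, passed the adjusted p alone. With 1 mouse left out this was lost in 4 of 8 fits for Cycs, 7 for Bak1 and 5 for Apaf1.

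All 7 genes for TNF release and mRNA decay were higher by the adjusted p, and 6 were called, with a median log2 fold change of 1.46. Adam17, the protease that sheds TNF, had 1.90 (SE 0.29, edgeR adjusted p = 0.00344), Rhbdf2 (iRhom2), which carries Adam17 to the surface, 2.22 (SE 0.46, edgeR adjusted p = 0.00973) and Frmd8, which stabilizes that complex, 1.03 (SE 0.24, edgeR adjusted p = 0.0146). Without sham mouse 3 or BCAS mouse 1 the log2 fold change of Frmd8 was under 1, as low as 0.81. Rhbdf1 passed the adjusted p alone, with 0.77. Of the genes whose proteins bind the AU-rich stretch of Tnf printed above, Zfp36 (tristetraprolin) rose from 4.74 ± 1.16 to 23.6 ± 12.9 CPM (log2 fold change 2.32, SE 0.40, edgeR adjusted p = 0.00512). Zfp36l1 and Zfp36l2 had 1.46 and 1.34 (edgeR adjusted p = 0.00391 and 0.00543), although 55.9% of the exon bases of Zfp36l1 lie opposite Gm26669 and the counting was not recorded as using strand.

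Of the 7 genes named for induction by TNF and their relatives, 3 were called higher, with a median log2 fold change of 0.21. Tnfaip2 had 4.11 (SE 0.74, edgeR adjusted p = 0.00628), Tnfaip8l2 (TIPE2) 3.36 (SE 0.44, edgeR adjusted p = 0.00239) and Tnfaip8 1.19 (edgeR adjusted p = 0.0110), or 0.94 without BCAS mouse 1. Tnfaip1 and Tnfaip6 did not pass, with 0.17 and 0.21 (edgeR adjusted p = 0.127 and 0.379).

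**Figure D5:**
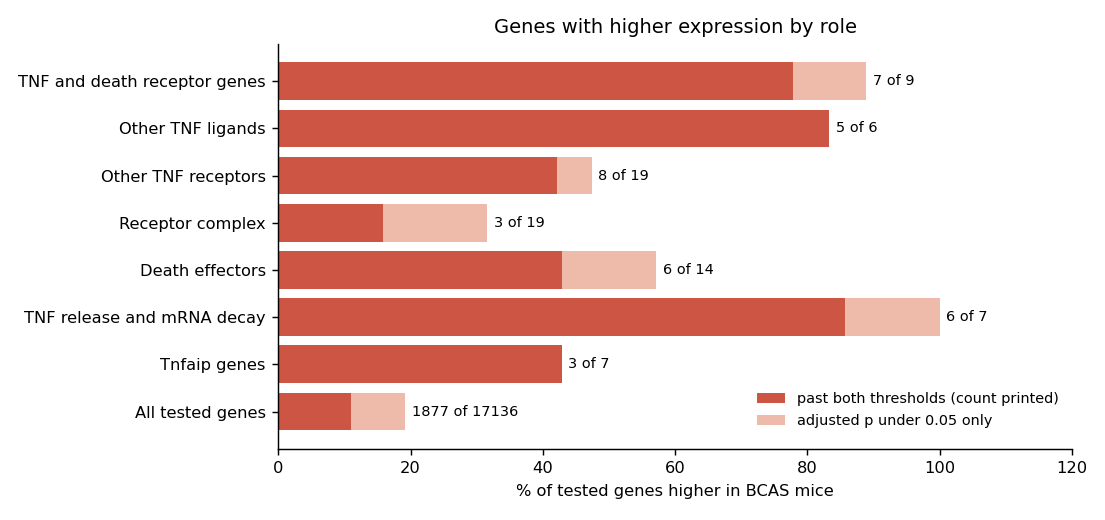
Percentage of tested genes higher in BCAS mice, by role, with dark bars for genes past both thresholds (counts printed as called of tested) and light bars for those past the adjusted p alone. The bars of the other ligands, other receptors and death effectors include genes tested only through the BCAS mice. Without these, 2 of 3 ligands, 2 of 12 receptors and 4 of 12 effectors were called, beside 3 of 19 in the receptor complex and 11.0% of all tested genes.

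The genes most like Tnf and Tnfrsf1a over the 4 BCAS mice were found by the root-mean-square distance between their log2 CPM values relative to the sham mean, with the same prior count of 2, as a description. For Tnf these were Mndal, Ms4a6d and Ifi203, at distances of 0.239, 0.290 and 0.291. Tnf had 4.91, 0.80, 3.56 and 2.86 in BCAS mice 1 to 4 on this scale and Mndal 4.69, 1.13, 3.71 and 2.63. For Tnfrsf1a they were Mamdc2, Trim12a and Ccdc88b, at 0.077, 0.084 and 0.089, and Mamdc2 followed the 3.21, 1.27, 2.65 and 2.36 of Tnfrsf1a with 3.09, 1.28, 2.74 and 2.39.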

How the data were processed

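Right cortex RNA of 4 sham and 4 BCAS mice was sequenced as paired reads. Per the methods, the authors trimmed reads with Trim-galore, aligned them to mm10 with HISAT2, sorted them with Samtools v1.9 and counted them per gene. The deposited values are raw counts per gene, without normalization. The file headers name featureCounts 2.0.1 and GENCODE vM20, with no option for strand or for reads on several genes, whereas the methods name featureCounts 1.6.3 and RefSeq genes. Symbols were matched by Ensembl gene ID for 54723 of 54752 genes.

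The main fit used all 8 libraries and no covariates in edgeR 4.0.16 (R 4.3.3), with TMM factors of 0.949 to 1.05 and the filterByExpr filter (minimum count 10, minimum total 15). p-values were adjusted by Benjamini-Hochberg over 17136 genes, and the thresholds for calls are those of the study. The groups of single values were compared by exact permutation of the libraries. The procedure was run on simulated counts with 200 changed genes and the same spread in both groups. The BCAS mice here spread more widely than the sham mice, which the simulation did not cover. The alternatives were DESeq2 1.42.0 and its size factors, limma-voom (limma 3.58.1), upper quartile and library size scaling, other filters, a replicate block and leaving out each mouse. Sensitivity to depth is limited to 3 counts, or 0.187 CPM in the smallest library, and intervals cover counting error only.

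The members, lists and tests were chosen with earlier results of these data known. Named in the text are the 10 genes and, from each list, the 3 most abundant tested genes per kilobase and the 2 called genes with the largest change and a mean of at least 10 counts. Fasl, Tnfsf11, Tnfrsf10b, Tnfrsf11b and the remaining genes named as called or past the adjusted p were added after their values were seen. Promoters are those of RefSeq, on GRCm38.p6.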

Additional observations from a re-analysis of the deposited data

Results flagged for a closer look

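Of 44 groups of 4 libraries examined, 4 held a library far from the other 3 by Dixon's criterion, all among marker sums in sham mice; chance flags about 1 in 20. Choroid plexus markers reached 754 CPM in sham mouse 3. Oligodendrocyte markers were lowest in the same mouse, at 3540 CPM. Macrophage and monocyte markers were highest in sham mouse 2, at 21.4 CPM, and red blood cell genes lowest in sham mouse 4, at 59.3 CPM. None of the 10 genes and neither group of the receptor ratio held such a library.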

How the results depend on the processing

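None of the 9 tested genes changed direction in the 16 alternative fits. Of the 144 outcomes of a gene in a fit, 131 left the call as it was, 11 lost a call (Tnfsf10, Tnfrsf11a and Fadd, each with 1 mouse left out) and 2 gained one (Tnfrsf12a). Genes without a call could still cross the adjusted p of 0.05. Tnfrsf12a had an edgeR adjusted p = 0.0643 with the replicate block, besides its losses with 1 mouse left out. Tradd had an edgeR adjusted p = 0.045 without BCAS mouse 2. The number of called genes in the group was 7 with 6 alternatives, the replicate block among them, and 8 with library size scaling, no filter (Tnf then added) or the adjusted p alone. With 1 mouse left out it ranged from 4 to 9 (with Tnf counted where it passed the filter through BCAS mice), that of the 6 lists from 22 to 37 and that of all genes from 1644 to 2967. The adjusted p alone gave 5490 genes in all. The 6 lists had 21 called genes with a filter of 10 counts in every library. The receptor ratio differed by 0.502 to 0.786 with 1 mouse left out, and exceeded p = 0.05 only where that was a sham mouse (exact permutation test, p = 0.0571 to 0.0857). Tnf differed by 1.23 to 3.23 CPM with 1 mouse left out, and its permutation test passed only without a BCAS mouse.

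Sham and BCAS mice share replicate numbers, but same-numbered mice did not deviate together (r = -0.045, -0.103, -0.008 and 0.001), and nothing in the labels pairs them. With the number as a replicate block, 7 genes of the group, 25 of the lists and 1809 in all were called, and the receptor ratio differed by 0.632 (exact sign flips of 4 pairs, p = 0.125, the smallest possible). Genes near 3 counts per library, such as Tnf in sham mice, cannot be ranked at this depth.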
